A study of Homo sapiens with 2 samples.

Results

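Complement and coagulation are the main proteolytic cascades of blood plasma, and hepatocytes make most of their proteins. In complement, recognition proteases of the classical and lectin pathways and the alternative pathway converge on cleavage of C3, after which C5 to C9 build the membrane attack complex. In coagulation, serine proteases that carry vitamin K-dependent Gla residues are assembled with their cofactors until thrombin cleaves fibrinogen, and serpins, the protein C system and tissue factor pathway inhibitor hold the cascade in check. A list of 40 genes of these cascades was followed here, made up of 16 complement components, 11 clotting factors (plasminogen and kininogen included) and 13 inhibitors and regulators. Of these, 39 had transcripts in the table, among 35030 genes in all, and C1R was not analysed here.

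The cells were HepG2, an established human liver cancer line, carrying a doxycycline (Dox) inducible cassette for SAMD4B, the human homologue of the Drosophila RNA-binding protein Smaug. One group was grown with 1 µg/ml Dox and the other without Dox, 48 h being stated for the experiment, and polyadenylated RNA was sequenced from 1 library of each. Both groups carry the cassette, and a library of Dox-treated cells without it was not used here, so effects of Dox and of SAMD4B cannot be told apart. The labels do not say whether the line is 1 clone. With 1 library per group there is no replicate error, no test was made, and every difference below is a difference between 2 libraries.

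The values are TPM, transcript abundances divided by length and scaled to the same total in each library, summed over the transcripts of a gene. From the steps of the low values an estimated 23786160 fragments were counted with Dox and 18298571 without. SAMD4B itself was at 261 TPM with Dox and 47.5 TPM without, a fragment ratio of 7.46 (95% counting interval 6.98 to 7.99). The fragment ratio is the estimated share of fragments from a gene with Dox over that without Dox, and its interval covers counting error only. All 10 hepatocyte markers listed were present in both libraries, from TTR at 64.5 TPM with Dox and 83.2 TPM without up to APOA2 and AFP, with 8 of the 10 lower with Dox (median log2 fold change -0.15). Summed TPM with and without Dox was 18.2 and 20.1 for 8 leukocyte markers, with PTPRC at 0. Of this CD68 held 11.3 and 10.7 TPM and AIF1 5.30 and 7.82 TPM. The sum was 6.57 and 6.11 for 8 endothelial markers, with VWF at 0 and PECAM1 at 4.55 and 4.57 TPM. For 6 cholangiocyte markers the sum was 192 and 207, with KRT7 at 0. Of these SOX9 was at 88.7 and 90.1 TPM, EPCAM at 76.9 and 94.2 TPM and KRT19 at 26.6 and 22.8 TPM. For 8 stellate and fibroblast markers the sum was 47.1 with Dox and 70.3 without, of which ACTA2 held 36.7 and 61.3 TPM. COL1A1 was at 0.14 and 0.20 TPM and PDGFRB at 7.35 and 4.11 TPM. The part of these markers in the results below was not tested.

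The cascades as a whole were close to their level without Dox. Genes whose mean of both libraries reached 1 TPM were compared, which took in 31 of the 39, all 13 inhibitors and regulators among them. On the scale of log2((TPM with Dox + 1)/(TPM without Dox + 1)), 19 of the 31 were lower and 12 higher with Dox, where 47.1% of all 11838 genes compared were lower and 52.9% higher. None was lower by 1.5-fold or more on this scale, against 3.83% of all genes, and none was higher by as much, against 5.17%. In bulk RNA, a change in the RNA of each cell and a change in how many cells carry it cannot be told apart. The 31 values ran between -0.55 for PROZ and 0.52 for MASP1, with a median of -0.07, beside 0.02 for all genes compared. The pseudocount matters for the genes near 3 to 13 TPM: with 0.1 TPM in place of 1, C1S, C8G, MASP2 and PROZ were lower by 1.5-fold or more and MASP1 was higher by as much.

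The ranges of the 3 functional groups overlapped. The median log2 fold change was -0.19 for the 12 complement components compared, 0.03 for the 6 clotting factors and -0.07 for the 13 inhibitors and regulators. The complement median was between -0.08 and -0.04 with a filter at 5 TPM, on protein-coding transcripts or on primary-assembly transcripts, and the clotting median was -0.11 without a filter. Summed TPM was 1302 with Dox and 1375 without for the complement components, 254 and 251 for the clotting factors, and 1962 and 2044 for the inhibitors and regulators. The complement components, with both C1S and MASP1, ran between -0.55 and 0.52, the clotting factors between -0.48 and 0.18, and the inhibitors and regulators between -0.55 and 0.49.

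**Figure D1:**
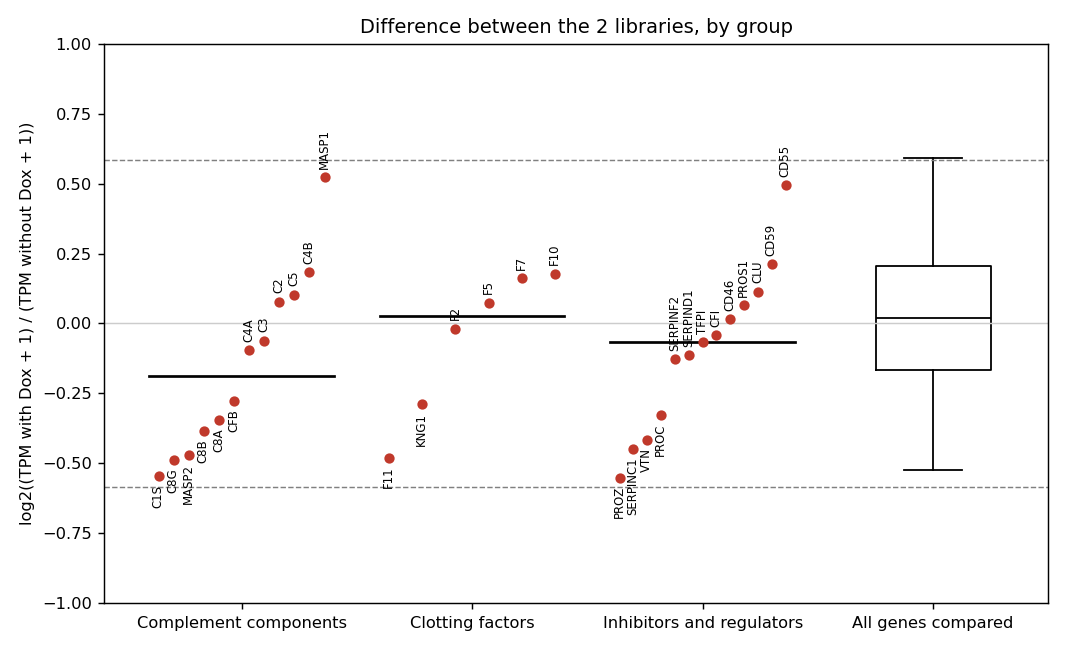
Each point is a gene at a mean TPM of at least 1, with its log2 fold change (with Dox over without Dox, pseudocount 1 TPM) on the vertical axis, and horizontal bars mark the group medians. The box shows the quartiles and the 5th to 95th percentiles of the 11838 genes compared, dashed lines mark a 1.5-fold difference, and no point of the 31 crosses them.

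Gene totals for proteases of the classical and lectin pathways differed in direction, though not all beyond counting error. C1S, the classical-pathway protease that cleaves C4 and C2, was at 8.86 TPM with Dox and 13.4 TPM without (fragment ratio 0.66, interval 0.58 to 0.76). Its second transcript ENST00000360817 accounted for most of this, at 1.56 TPM with Dox and 4.89 TPM without, while the leading ENST00000328916 was at 6.87 and 7.84 TPM. MASP2, the gene of the lectin-pathway protease that cleaves C4, was at 2.88 TPM with Dox and 4.39 TPM without. Its fragment ratio of 0.76 had an interval of 0.56 to 1.04 that includes 1. The retained-intron transcript ENST00000480221 held 56.1% of the TPM of MASP2 with Dox and 51.2% without. The protein-coding ENST00000400898 of 726 nt was lower, at 0.75 and 1.82 TPM. The protein-coding ENST00000400897 of 2439 nt was higher, at 0.51 and 0.32 TPM, from about 21 and 10 estimated fragments.

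MASP1, whose gene gives several lectin-pathway proteases by alternative splicing, was the member with the largest positive value, at 4.67 TPM with Dox and 2.94 TPM without (fragment ratio 1.63, interval 1.27 to 2.12). Both of its protein-coding transcripts with more than 10% of the TPM were higher. ENST00000296280 was at 2.09 TPM with Dox and 1.43 TPM without, and ENST00000169293 at 0.60 and 0.36 TPM. ENST00000337774, also protein-coding, was at 0.01 TPM with Dox and 0 without. Which protein each transcript encodes was not analysed. The retained-intron transcript ENST00000460839 of MASP1 was higher too, at 1.01 TPM with Dox and 0.21 TPM without. It held 21.6% of the gene's TPM with Dox and 7.26% without, from about 8.7 and 1.5 estimated fragments. A short processed transcript of MASP1, ENST00000465015, went the other way, with 5.52% of the gene's TPM with Dox and 32.0% without. MBL2, the mannose-binding lectin that carries these proteases, was listed at 0 in both libraries, and a transcript of 2000 nt with 3 fragments would have been at 0.0942 TPM with Dox and 0.119 TPM without.

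C3, the protein on which all pathways converge, was the most abundant of the 39 genes measured, at 666 TPM with Dox and 695 TPM without. The fragment ratio was 0.95 (interval 0.94 to 0.96), so the small difference is beyond counting error, while the spread between cultures is unknown. C3 ranked 171 of the 11838 genes by mean TPM.

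The genes for factor B, C2 and C4 lie side by side in the class III region of the major histocompatibility complex on chromosome 6, of which GRCh38 holds alternate versions, and much of their signal was assigned to those. Other copies held 93.1% of the TPM of CFB with Dox and 94.2% without. They held 77.3% and 80.9% for C2, 34.4% and 34.5% for C4A, and, on chromosome 17, 49.5% and 48.1% for the antiplasmin gene SERPINF2. Among the 39 genes these were the 4 with other copies above 0, and without the copies CFB would appear at 10.7 TPM with Dox and 10.8 TPM without.

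With all copies added, CFB, the protease of the alternative-pathway C3 convertase (chr6:31945650-31952084, GRCh38), was at 154 TPM with Dox and 187 TPM without, a log2 fold change of -0.28. Its primary-assembly transcripts alone gave -0.02, and its protein-coding ones 0.27, so the direction rests on the other copies, led by ENST00000419411 at 111 TPM with Dox and 159.6 TPM without. C2, the classical-pathway counterpart of factor B (chr6:31897785-31945672), was at 118 TPM with Dox and 112 TPM without (0.08), where the primary transcripts alone gave 0.31. Both genes were thus abundant, and the direction for C2 was the same with and without the other copies.

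C4A and C4B encode near-identical forms of C4, so the split of fragments between them is uncertain. C4A was at 235 TPM with Dox and 252 TPM without, and C4B at 20.8 and 18.2 TPM. Their sum was 256 TPM with Dox and 269.9 TPM without (log2 fold change -0.08). Most of the C4A value lay on a retained-intron transcript of 554 nt, ENST00000470365, at 152 TPM with Dox and 164 TPM without, and the leading other copy ENST00000383325 was at 66.2 and 75.1 TPM. No fragment ratio was estimated for C4A, since its transcript of 554 nt is under the 600 nt needed and the other copies have no length in the annotation used.

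**Figure D2:**
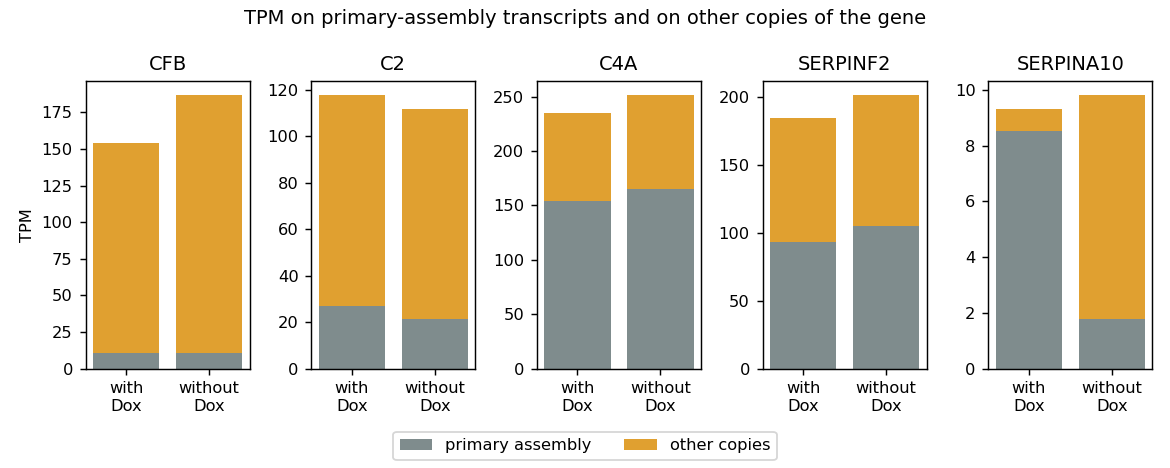
Stacked bars give TPM on primary-assembly transcripts and on other copies of CFB, C2, C4A, SERPINF2 and SERPINA10 in the library with Dox and the library without Dox, each panel on its own linear scale from 0. CFB lies almost wholly on other copies in both libraries, while SERPINA10 is mostly on primary transcripts with Dox and mostly on other copies without Dox, at nearly equal totals of 9.30 and 9.83 TPM.

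Among the terminal components, the 3 subunits of C8, a part of the membrane attack complex that enters the lipid bilayer, were all lower. C8A was at 2.71 TPM with Dox and 3.71 TPM without (fragment ratio 0.71, interval 0.54 to 0.93). C8B, its neighbour on chromosome 1, was at 5.40 TPM with Dox and 7.36 TPM without (0.71, 0.57 to 0.89). C8G, a lipocalin encoded on chromosome 9, was at 2.81 TPM with Dox and 4.34 TPM without, with its protein-coding transcript ENST00000371634 at 1.16 and 2.24 TPM. These are low levels, resting for C8A on about 104 estimated fragments with Dox and 113 without. The coding transcript of C8G rests on about 13 and 19, and no fragment ratio was estimated for that gene. The retained-intron transcript of C8G, ENST00000649755 of 477 nt, was at 1.64 TPM with Dox and 1.69 TPM without. C5, the precursor of the anaphylatoxin C5a, was far more abundant and slightly higher, at 80.2 TPM with Dox and 74.6 TPM without (1.10, 1.06 to 1.14). C6 was at 0.61 TPM with Dox and 1.01 TPM without, and C9, which forms the ring of the pore, was listed at 0 with Dox and at 0.05 TPM without.

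The membrane-bound complement regulators were all at or above their level without Dox. CD55, which speeds the decay of C3 convertases, was at 49.5 TPM with Dox and 34.9 TPM without (fragment ratio 1.33, interval 1.24 to 1.43), the second largest positive value of the list. CD59, which blocks C9 insertion, was at 134 TPM with Dox and 115 TPM without, but its fragment ratio was 1.02 (0.96 to 1.08). CD46, a cofactor for cleavage of C3b and C4b, was at 169.9 TPM with Dox and 168 TPM without, a log2 fold change of 0.02 that turned to -0.01 when both libraries were scaled to the same median gene and to -0.01 in fragments.

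Behind the equal totals of CD46 the mix of transcripts differed. Its 4 leading transcripts, with 91.2% of its TPM with Dox and 88.9% without, differ by the presence or absence of 2 exons (an observation made after the values were seen). One is a coding exon of 45 nt (chr1:207767779-207767823, GRCh38, plus strand), part of the serine, threonine and proline-rich stretch near the membrane. It is shown because its presence separates the transcripts that were lower from those that were higher, with the sequence taken from GENCODE transcript ENST00000367042.

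CD46 exon of 45 nt: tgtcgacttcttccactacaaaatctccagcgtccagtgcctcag

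The transcripts with this exon, ENST00000367042 and ENST00000354848, together were at 110.4 TPM with Dox and 126 TPM without. Those without it, ENST00000367041 and ENST00000357714, were at 17.2 and 27.2 TPM with Dox and at 6.28 and 16.9 TPM without. The exon was thus absent from 28.7% of the TPM of the 4 transcripts with Dox and from 15.5% without. The other exon, of 93 nt, which sets the form of the cytoplasmic tail, was absent from 63.7% with Dox and 62.4% without. Salmon infers these shares from fragments that mostly match several of the transcripts, and no error could be given for them.

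The soluble complement regulators did not move together. CFI, the protease that cleaves C3b and C4b, was the second most abundant gene of the list, at 444 TPM with Dox and 456 TPM without. VTN, vitronectin, which binds the terminal complex, was at 39.0 TPM with Dox and 52.4 TPM without (fragment ratio 0.71, interval 0.66 to 0.76). CLU, clusterin, a secreted chaperone that also binds the terminal complex, was at 145 TPM with Dox and 134 TPM without, and its fragment ratio was 1.34 (1.25 to 1.43). Fragments are not divided by length, and the transcripts of CLU differ in length. Its transcript of 2098 nt, ENST00000405140, was at 35.4 TPM with Dox and 22.7 TPM without, ENST00000560566 of 1039 nt at 38.2 and 25.5 TPM, and ENST00000520796 of 737 nt at 3.33 and 27.0 TPM.

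**Figure D3:**
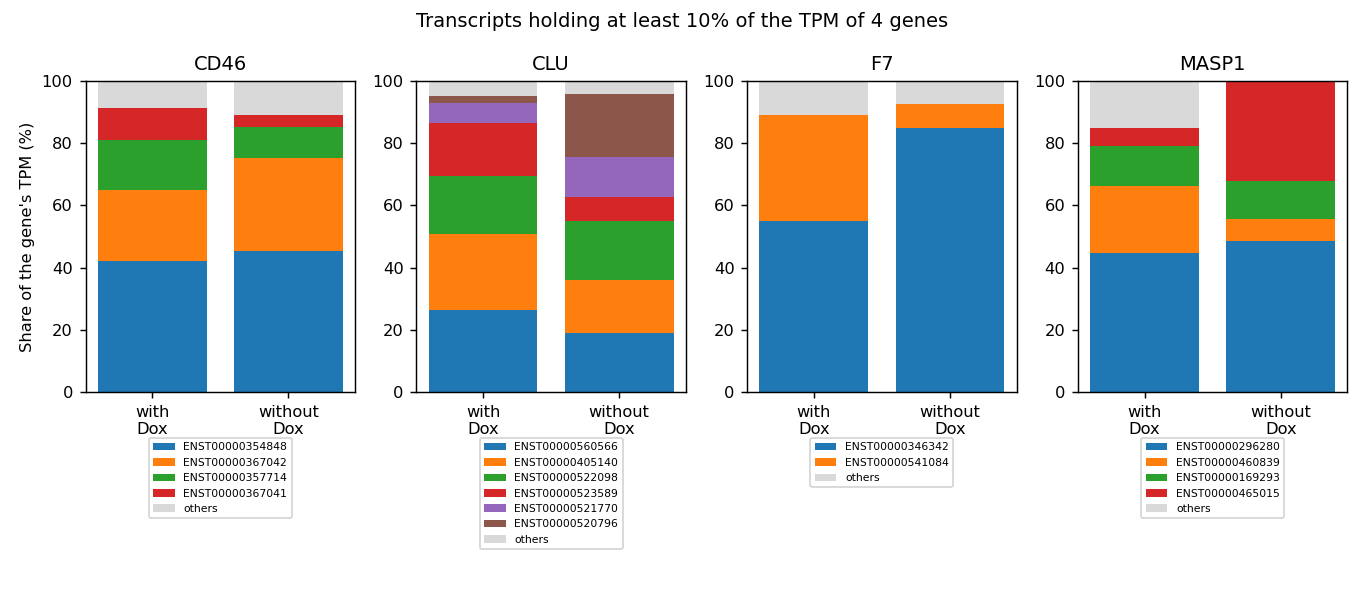
Stacked bars give each transcript's share of its gene's TPM, in percent, for CD46, CLU, F7 and MASP1 in the library with Dox and the library without Dox. Transcripts with at least 10% in either library have a colour, and all others are grey. The share of F7 on ENST00000541084 is 33.9% with Dox and 7.85% without.

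Most clotting factors with a measurable level differed little. F2, prothrombin, was at 141 TPM with Dox and 143 TPM without (fragment ratio 0.96, interval 0.92 to 1.01). F5, the cofactor of factor Xa, was at 35.7 TPM with Dox and 33.8 TPM without. The contact-phase members compared were lower in gene totals. F11, factor XI, was at 5.18 TPM with Dox and 7.63 TPM without (0.64, 0.52 to 0.79). KNG1, high-molecular-weight kininogen and its short form, was at 7.79 and 9.73 TPM (0.81, 0.69 to 0.95). Within KNG1 most of the difference lay on ENST00000287611 of 2093 nt, at 2.86 TPM with Dox and 4.66 TPM without. ENST00000644859 of 4198 nt was nearly level, at 2.22 and 2.27 TPM. In fragment ratios F11, C1S and PROZ were past a 1.5-fold difference, which they were not on the scale of TPM plus 1.

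Several clotting factors were at or near the detection limit in these HepG2 cells. F9, factor IX, was listed at 0 in both libraries. F8, factor VIII, was at 0.09 TPM with Dox and 0.33 TPM without, F12 at 0.18 and 0.30 TPM, and F13B, the carrier subunit of factor XIII, at 0.29 and 0.49 TPM. PLG, plasminogen, was at 0.60 TPM with Dox and 0.69 TPM without, from an estimated 4 fragments in each library, none on a protein-coding transcript. With the estimated fragments of F12 at 4 and 6 and those of F13B at 11 and 14, no difference was detectable at this depth.

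F7, F10 and PROZ lie in a row on the plus strand of chromosome 13. They went different ways in TPM, though the fragment ratio intervals of F7 and F10 include 1. F7, the protease that tissue factor activates, starts at 113105788, F10, the protease of the prothrombinase, at 113122814, and PROZ, a cofactor for inhibition of factor Xa, at 113158654 (GRCh38). F10 was at 56.3 TPM with Dox and 49.6 TPM without (fragment ratio 1.07, interval 0.98 to 1.17). Its retained-intron transcript ENST00000477269 was at 3.81 TPM with Dox and 0 without. On protein-coding transcripts only, the log2 fold change of F10 was 0.09. F7 was at 7.02 TPM with Dox and 6.18 TPM without (1.09, 0.90 to 1.32). PROZ had the lowest log2 fold change of the list, at 3.13 TPM with Dox and 5.05 TPM without (0.66, 0.47 to 0.93). Within F7 the leading transcript ENST00000346342 was at 3.87 TPM with Dox and 5.24 TPM without, while ENST00000541084 was at 2.38 and 0.48 TPM.

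The promoters of F10 (chr13:113122549-113122848) and PROZ (chr13:113158398-113158697), 250 bases before to 50 after the start, both plus strand, are from RefSeq on GRCh38.p14. They are shown as neighbours that differed in direction in TPM and that both hold the motif marked below. The promoter of F7, in the same row, holds no match to it and is not shown. Capitals mark AAAGTCC or its reverse complement, the core of the binding motif of the liver regulator HNF4.

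F10: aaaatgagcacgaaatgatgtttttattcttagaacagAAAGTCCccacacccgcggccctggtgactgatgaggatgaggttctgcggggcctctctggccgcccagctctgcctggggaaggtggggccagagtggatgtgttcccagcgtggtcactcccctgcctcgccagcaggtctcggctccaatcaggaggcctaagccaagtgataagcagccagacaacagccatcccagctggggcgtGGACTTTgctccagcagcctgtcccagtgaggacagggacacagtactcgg
PROZ: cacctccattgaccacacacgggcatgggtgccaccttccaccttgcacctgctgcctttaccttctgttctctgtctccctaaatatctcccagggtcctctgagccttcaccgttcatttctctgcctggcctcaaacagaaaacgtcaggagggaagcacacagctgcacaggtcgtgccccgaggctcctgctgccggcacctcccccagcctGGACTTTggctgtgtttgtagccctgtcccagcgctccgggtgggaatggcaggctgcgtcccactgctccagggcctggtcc

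F10 holds this core in 2 places and PROZ in 1. Of the 40 genes, 31 had a promoter in the table, 23 of them among those compared. The HNF4 core is on either strand in 2 of these 23 (8.70%), F10 and PROZ, beside 3.02% of the 9025 promoters of all genes compared. With C9, below 1 TPM, it is in 3 of the 31 (9.68%), beside 3.73% of all 27305 promoters. The C/EBP pattern TTGCNNAA is in VTN and KNG1 of the 23 (8.70%, beside 6.75% of genes compared) and also in C6 and MBL2 of the 31 (12.9%, beside 10.6% of all). A match is a description of the letters and no evidence of binding.

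The inhibitors of clotting were lower in 6 of 7 cases (median log2 fold change -0.13), where 47.1% of all genes compared were lower. Among the hepatocyte markers 8 of 10 were lower (median -0.15), so this direction was not particular to the inhibitors. SERPINC1, antithrombin, the main inhibitor of thrombin and factor Xa, was at 101 TPM with Dox and 139 TPM without (fragment ratio 0.72, interval 0.68 to 0.76). SERPIND1, heparin cofactor II, was at 388 TPM with Dox and 420.1 TPM without (0.90, 0.88 to 0.92). SERPINF2, alpha-2-antiplasmin, was at 185 TPM with Dox and 202 TPM without. Antithrombin differed the most among the abundant members of this group.

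The protein C system went both ways in TPM, though the fragment ratio interval of PROS1 includes 1. PROC, the zymogen of activated protein C, was at 63.6 TPM with Dox and 80.1 TPM without (log2 fold change -0.33). Its leading transcript ENST00000234071 was at 26.9 and 32.4 TPM and the retained-intron transcript ENST00000474030 at 14.4 and 24.4 TPM. On protein-coding transcripts only, the log2 fold change of PROC was -0.19, and no fragment ratio was estimated for this gene. PROS1, the cofactor protein S, was the only one of the 7 that was higher, at 156 TPM with Dox and 149 TPM without (fragment ratio 1.02, interval 0.99 to 1.06). On protein-coding transcripts only, its log2 fold change was 0.26. The processed transcript of PROS1, ENST00000648381, went the other way, at 15.5 TPM with Dox and 32.3 TPM without. TFPI, which inhibits the tissue factor and factor VIIa complex, was at 83.5 TPM with Dox and 87.5 TPM without (0.89, 0.84 to 0.94), and within it ENST00000339091 of 1088 nt was at 26.4 and 19.1 TPM. The 7 vitamin K-dependent Gla proteins, F2, F7, F9, F10, PROC, PROS1 and PROZ, summed to 427 TPM with Dox and 433 TPM without.

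**Figure D4:**
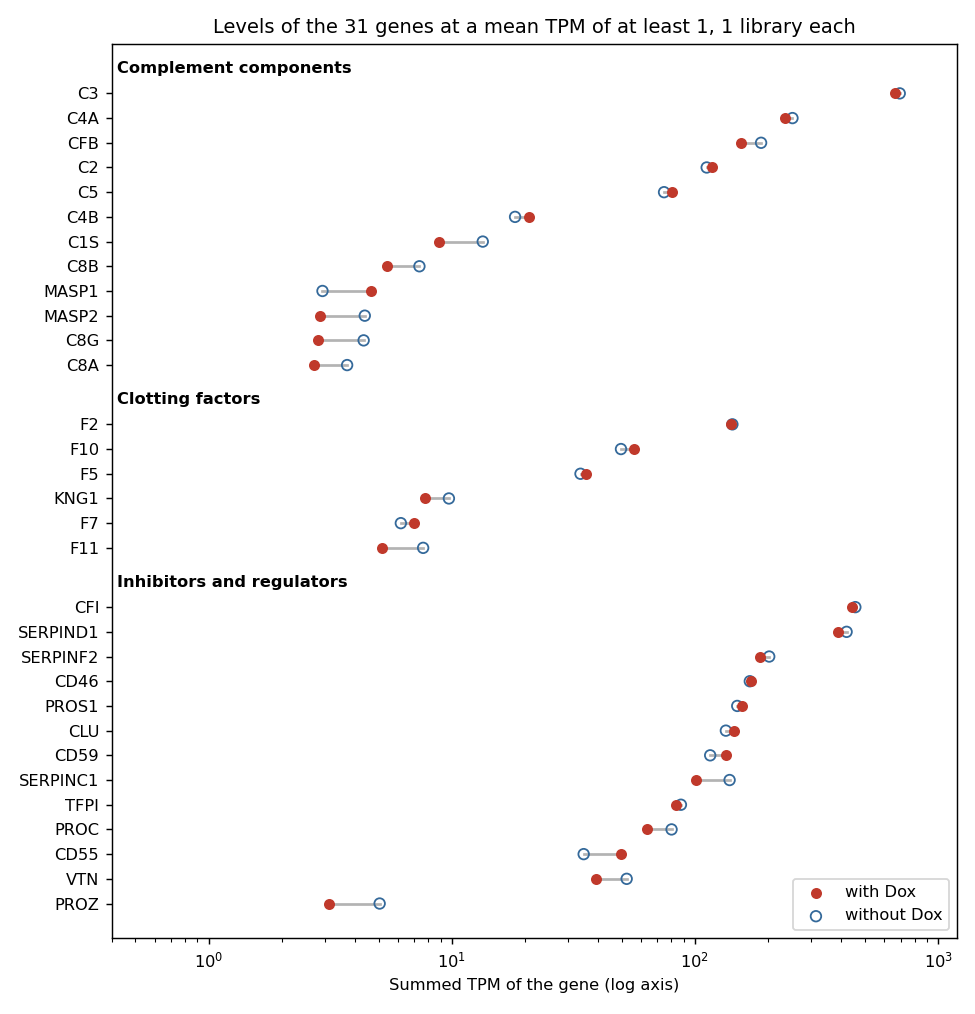
Each row is a gene at a mean TPM of at least 1, grouped by role and ordered by TPM with Dox, with a filled point for the library with Dox and an open point for the library without Dox on a log axis. The points of C3 and CFI nearly coincide, while those of PROZ, C8G, MASP2, C1S and MASP1, all at low TPM, lie furthest apart.

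Other genes of the same cascades, from a list of 61, showed where larger differences lay. Of its 24 genes at a mean TPM of at least 1, 11 were higher and 13 lower (median -0.03), where 47.1% of all genes compared were lower. None was lower by 1.5-fold or more, against 3.83% of all genes compared. F2RL1, the protease-activated receptor PAR2 that factor Xa and the tissue factor complex can cleave, was at 56.4 TPM with Dox and 8.68 TPM without (fragment ratio 6.28, interval 5.60 to 7.05). PROCR, the endothelial protein C receptor, named after its values were seen, was at 6.21 TPM with Dox and 2.82 TPM without (1.87, 1.31 to 2.72). Both encode cell-surface receptors and not plasma zymogens. The 3 most abundant genes of that list were close to their level without Dox, with SERPINA1 at 2399 TPM with Dox and 2571 TPM without, A2M at 1306 and 1339 TPM and FGG at 1209 and 1390.2 TPM.

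SERPINA10, the inhibitor for which protein Z is the cofactor, shows how the other copies bear on a value. On primary-assembly transcripts it was at 8.52 TPM with Dox and 1.78 TPM without, a log2 fold change of 1.78. With its other copies it was at 9.30 TPM with Dox and 9.83 TPM without, a log2 fold change of -0.07. Across the table, 1070 genes differed by 1.5-fold or more on primary transcripts alone, 55 of them had other copies above 0, and 44 of the 55 were within 1.5-fold once these were added.

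The genes that carboxylate and export clotting factors went both ways, by small amounts. Of 12 such genes 11 were compared, 5 higher and 6 lower, none by 1.5-fold, with a median log2 fold change of -0.00197. Of all genes compared, 5.17% were higher and 3.83% lower by 1.5-fold or more. GGCX, the carboxylase that makes Gla residues, was at 41.7 TPM with Dox and 50.4 TPM without (fragment ratio 0.85, interval 0.80 to 0.91), and VKORC1, which recycles vitamin K, at 75.6 and 76.4 TPM. LMAN1 and MCFD2, the cargo receptor for factors V and VIII, were at 299 and 302 TPM with Dox and at 268 and 242 TPM without. The most abundant of the list, P4HB, was at 903 TPM with Dox and 801 TPM without, and PDIA3 at 701 and 705 TPM.

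Among 17 liver transcription regulators, 8 were higher and 9 lower (median log2 fold change -0.00377), with 1 higher and 3 lower by 1.5-fold or more. Of all 11838 genes compared, 52.9% were higher and 47.1% lower, with 5.17% higher and 3.83% lower by 1.5-fold or more. CEBPA, a C/EBP factor of hepatocytes, was at 21.1 TPM with Dox and 35.6 TPM without (fragment ratio 0.58, interval 0.53 to 0.63). NR1H4, the bile acid receptor FXR, was at 25.7 TPM with Dox and 40.6 TPM without, and the clock output factor DBP at 5.27 and 8.69 TPM. HNF4A, a main activator of clotting factor genes in the liver, was at 64.5 TPM with Dox and 81.8 TPM without (0.77, 0.74 to 0.81). HNF4G was at 11.8 TPM with Dox and 4.98 TPM without, with no fragment ratio estimated, and STAT3 and PROX1 were at 47.2 and 40.9 TPM with Dox and at 40.4 and 43.5 TPM without. Whether these regulators have a part in the members' values was not tested.

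**Figure D5:**
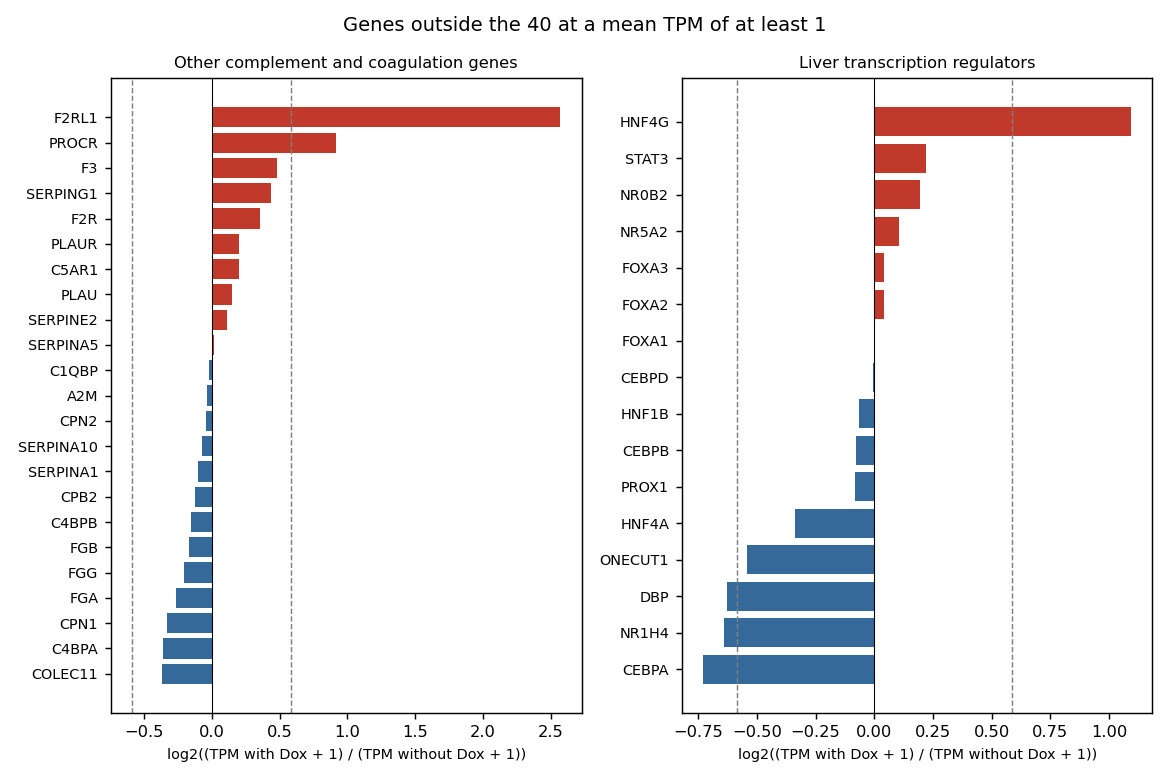
Bars give the log2 fold change (with Dox over without Dox, pseudocount 1 TPM) of other complement and coagulation genes and of liver transcription regulators at a mean TPM of at least 1, with dashed lines at a 1.5-fold difference. F2RL1 and PROCR lie beyond the line on the higher side, and CEBPA, NR1H4 and DBP on the lower side.

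Smaug proteins bind RNA hairpins with a CNGG loop, as known for the fly protein. The most abundant protein-coding transcript of each gene on the primary assembly was searched for the loop CNGG with 0 to 3 further bases, closed by 5 Watson-Crick pairs, on the sense strand. Of the members' transcripts 16.7% (5 of 30) hold such a hairpin, beside 28.8% of the 11070 genes compared, whose transcripts were longer (median 2649 nt, against 2320 nt). Per kb of transcript searched, the members held 0.063 hairpins and all genes compared 0.118. The sequences of other copies were not searched, among them the leading transcripts of CFB and C2, and for CFB the transcript searched held 1.32% of the TPM with Dox and 0.81% without. Each of the 5 hairpins lies in the coding part. They are shown with the loop in capitals, from the GENCODE release 29 transcripts, since they are the members' only matches to the motif searched.

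C2: gcggaCAGGCTtccgc
C4B: tgctgCAGGcagca
C8A: ggcctCTGGaggcc
F2: ctggcCTGGgccag
F5: ggaatCAGGTCattcc

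The log2 fold changes of these 5 genes ran between -0.35 and 0.18, with 2 of 5 lower and a median of 0.07. The 25 members with no such hairpin in the transcript searched, CFB among them, ran between -0.55 and 0.52, with 16 of 25 lower and a median of -0.11. The ranges overlap, and the hairpins are matches of letters, not sites shown to be bound.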

How the data were processed

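The authors deposited TPM values for 184844 Ensembl transcripts, 1 column per library, per the labels. Trimmomatic, Salmon and the build GRCh38.p13 are named in the submitters' processing notes, and their versions and options are unknown here. Salmon shares fragments among transcripts they match equally well, so values can move between copies or isoforms.

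Groups were taken from the sample titles, since the treatment text of both samples names Dox. Transcripts were named by identifier, without version, through GENCODE release 29: 161798 lay on the primary assembly (93.3% of the TPM in each library). A further 10695 (2.94% with Dox, 3.05% without) were other copies, on alternate loci or patches, named through that release's HGNC table and added to their gene. The other 12351 (3.72% and 3.69%) were not used. A mean TPM of at least 1 and a pseudocount of 1 TPM were applied.

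For transcripts of at least 600 nt, TPM times length, less 310 nt with Dox or 300 nt without, lay near whole multiples of 1 value. Of values under 5.5 fragments, 86.3% (410 of 475) with Dox and 85.9% (397 of 462) without were within 0.1 of a whole number, which describes the fit and is no independent check. Fragment ratios (with Dox over without, per estimated depth) have exact 95% binomial intervals (Clopper-Pearson) that cover counting error only. They are given where at least 80% of the TPM had an estimate, for 25 of the 31 members compared. The estimates were checked on simulated data. Software was Python 3.11.15, pandas 2.3.3, NumPy 2.4.6 and SciPy 1.17.1.

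The members and lists were chosen with earlier results of these data known. Of the other lists, genes at a mean TPM of at least 5 and 1.5-fold apart and the 3 most abundant were to be named. Other genes of those lists, and many of the transcripts, were chosen after their values were seen. Some genes of the other lists are not reported here, though they enter the counts and medians of their lists.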

Additional observations from a re-analysis of the deposited data

How the results depend on the processing

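In 10 alternative settings (9 planned, and primary-assembly transcripts only, added after seeing the data), 278 of 298 values of single members moved by no more than the half-width of their counting interval and 20 by more, with the median half-width of 0.10 (log2) taken for the 6 members without an interval. The sign changed in 3, for CD46 in 2 settings and for CFB, at 0.27 on protein-coding transcripts only, where other copies carry no biotype and drop out. With a pseudocount of 0.1 TPM, 4 members were at least 1.5-fold lower and 1 higher. In estimated fragments 3 were lower (C1S, F11 and PROZ) and 1 higher, and on protein-coding transcripts only 1 (MASP1) was higher. The median of the complement components was -0.0794 at a mean TPM of at least 5, -0.0377 on protein-coding transcripts only and -0.0787 on primary-assembly transcripts only. That of the clotting factors was -0.11 without a filter on low values, which adds members below 1 TPM. The filters change which members are counted, and other causes were not tested. No paired analysis was possible because each group has 1 library. Low levels rest on few fragments (104 with Dox and 113 without for C8A), and the spread between cultures is unknown.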

Other observations

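Some genes were listed above 0 on other copies only. SURF4, a cargo receptor of the endoplasmic reticulum, had all of its 196 TPM with Dox and 211 TPM without on copies outside the primary assembly, and AIF1, a macrophage marker in the major histocompatibility complex, all of its 5.30 and 7.82 TPM. Further cascade genes that were lower included C4BPA, the alpha chain of the C4b-binding protein, at 27.5 TPM with Dox and 35.6 TPM without (fragment ratio 0.76, interval 0.69 to 0.83), and COLEC11, a lectin-pathway recognition protein, at 17.2 and 22.5 TPM (0.73, 0.62 to 0.85). CPN1, the catalytic subunit of the carboxypeptidase that inactivates anaphylatoxins, was at 19.9 TPM with Dox and 25.2 TPM without (0.77, 0.68 to 0.86). F3, tissue factor, was at 6.30 TPM with Dox and 4.24 TPM without (1.43, 1.13 to 1.80), and the thrombin receptor gene F2R at 18.5 and 14.2 TPM (1.24, 1.13 to 1.36). These genes were named after their values were seen.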
